A study of Mus musculus with 12 samples.

Results

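The genes described here are 9 complement components and receptors, *C1qa*, *C1qb*, *C1qc*, *C2*, *C3*, *C6*, *Cfp*, *C3ar1* and *C5ar1*. They were found by symbol in a table of 16971 genes, and all 9 had normalized counts that summed to at least 10 over the libraries, as did 12889 genes in all. The set was chosen by its biology with the group means of the same table in view, so the levels and ratios below are a description of the genes selected on them. The cells were GFP(+) cells of the liver, sorted by FACS from the nonparenchymal fraction of adult C57BL/6 mice of the genotype Prom1CreERT2-nLacZ/+;Rosa26Lsl-GFP/+. In these mice the *Prom1* promoter drives a Cre that tamoxifen activates, and a cell that expressed *Prom1* at that time keeps GFP, as do its progeny. Tamoxifen was given to all groups 7 days before surgery, and *Prom1* itself is heterozygous for the knock-in in every group.

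The groups were day 0 (3 libraries, sham in the labels and before ligation in the study's text), BDL day 3 (3 libraries) and BDL day 14. Bile duct ligation (BDL) stops the flow of bile out of the liver. Of the 6 BDL day 14 libraries in the labels, 4 are behind the table, and the 2 left out are not named. The study left these out for too few reads, and before sequencing it left out samples of day 0 and BDL day 3 for poor RNA. The labels do not say that the libraries of a group came from separate mice, while the study calls them biological replicates and counts them by mouse. By its account, day 0 had more females than males, and both BDL groups had more males than females. The part of sex in the ratios below cannot be told apart without values of single libraries. The table holds 1 mean per group and no value of any one library. For this reason no new test between groups could be made. The authors' own p-values for the comparisons were not used, so no p-value is given. The depth of each library is unknown.

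Complement is a cascade of plasma proteins that marks microbes, immune complexes and dying cells. In the classical pathway, C1q binds the target and the protease C1r activates the protease C1s. C1s cuts C4 and C2, which together form an enzyme that cuts C3. Properdin, the product of *Cfp*, stabilises the corresponding enzyme of the alternative pathway. In the terminal pathway, C6 to C9 join C5b to form a pore in the target's membrane, and the fragments C3a and C5a that are set free act on the receptors encoded by *C3ar1* and *C5ar1*. Hepatocytes make most of the complement in plasma, whereas C1q and properdin come mainly from macrophages and other myeloid cells.

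*C1qa* (chromosome 4, 136895917 to 136898803), *C1qb* (136880129 to 136886187) and *C1qc* (136889804 to 136893065) lie side by side on the minus strand of GRCm38, within 18675 bases. The gap between *C1qb* and *C1qc* is 3616 bases and that between *C1qc* and *C1qa* is 2851 bases. The other genes are scattered. *C2* lies on chromosome 17 from 34862604 to 34898265, 85 bases from *Cfb*, and *C3* lies on the same chromosome from 57203970 to 57228136. *C6* is on chromosome 15 (4727175 to 4814967), *Cfp* on chromosome X (20925454 to 20931555), *C3ar1* on chromosome 6 (122847138 to 122856161) and *C5ar1* on chromosome 7 (16246743 to 16259540).

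Promoter sequences of 7 of the 9 genes, each from 250 bases before to 50 bases after the RefSeq start on GRCm38.p6, were searched on both strands for 7 motifs. They are shown for 5 genes. *C1qb*, *C1qc* and *Cfp* are the genes of the 7 whose promoters held GAGGAA, the motif marked below. Their log2 ratios to day 0 were 0.64 to 1.06 at BDL day 3, and *C6* (0.68) and *C3ar1* (0.87) lay in the same span at that time. At BDL day 14 the ratios of these 3 genes differed, with 0.26 for *C1qb*, -0.80 for *C1qc* and -1.59 for *Cfp*. *C6* and *C3ar1* were taken because they had the lowest and the highest ratio to day 0 among the 7 at BDL day 14. Capitals mark GAGGAA, a core bound by the myeloid factor PU.1, or its reverse complement TTCCTC.
C1qb, chr4:136886151-136886450, minus strand: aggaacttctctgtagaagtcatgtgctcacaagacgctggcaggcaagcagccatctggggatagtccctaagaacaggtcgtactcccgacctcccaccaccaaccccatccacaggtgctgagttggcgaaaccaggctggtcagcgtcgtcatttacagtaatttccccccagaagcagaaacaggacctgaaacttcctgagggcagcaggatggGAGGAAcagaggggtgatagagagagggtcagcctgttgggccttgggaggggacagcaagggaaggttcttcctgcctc
C1qc, chr4:136892865-136893164, minus strand: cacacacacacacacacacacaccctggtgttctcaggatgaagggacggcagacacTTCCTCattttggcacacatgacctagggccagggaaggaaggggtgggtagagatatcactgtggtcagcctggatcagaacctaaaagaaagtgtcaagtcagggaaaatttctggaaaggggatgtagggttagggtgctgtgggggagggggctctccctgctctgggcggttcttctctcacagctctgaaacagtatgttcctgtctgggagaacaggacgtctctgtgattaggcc
Cfp, chrX:20931506-20931805, minus strand: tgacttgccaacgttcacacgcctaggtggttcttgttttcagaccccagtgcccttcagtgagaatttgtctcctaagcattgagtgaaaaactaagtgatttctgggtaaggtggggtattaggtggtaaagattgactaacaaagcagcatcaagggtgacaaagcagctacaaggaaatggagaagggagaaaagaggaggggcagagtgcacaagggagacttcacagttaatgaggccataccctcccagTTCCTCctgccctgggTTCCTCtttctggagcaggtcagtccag
C6, chr15:4726960-4727259, plus strand: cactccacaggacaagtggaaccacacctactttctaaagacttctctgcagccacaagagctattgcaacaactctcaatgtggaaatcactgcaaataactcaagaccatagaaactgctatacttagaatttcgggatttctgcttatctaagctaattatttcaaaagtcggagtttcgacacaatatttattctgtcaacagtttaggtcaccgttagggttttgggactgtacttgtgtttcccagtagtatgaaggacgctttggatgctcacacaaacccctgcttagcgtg
C3ar1, chr6:122856108-122856407, minus strand: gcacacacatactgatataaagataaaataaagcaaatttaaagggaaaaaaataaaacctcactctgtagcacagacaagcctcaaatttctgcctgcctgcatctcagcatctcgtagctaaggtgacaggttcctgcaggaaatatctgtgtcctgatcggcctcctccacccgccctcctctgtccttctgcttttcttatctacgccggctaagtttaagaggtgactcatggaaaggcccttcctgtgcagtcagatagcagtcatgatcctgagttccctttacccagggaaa
The GAGGAA core was found in 3 of the 7 promoters, against 28.3% of 32851 promoters of the same length. In *C1qb* it ran from 30 to 25 bases before the start. In *C1qc* it lay on the other strand, from 193 to 188 bases before the start, and *Cfp* held 2 copies on the other strand within the 50 bases after it. *C6* held AGGTCA, a sequence bound by nuclear receptors, from 40 to 35 bases before its start. This motif was also in *C1qc*, *C3* and *Cfp*, so that 4 of 7 promoters held it, against 16.3% of all promoters. *C3ar1* held TGANTCA, bound by AP-1, from 22 to 16 bases before its start (7.81% of all promoters), and TATAAA was in *C3ar1* and *C3* (13.6%). *C3* also held TTGCNNAA, the motif of C/EBP factors, from 45 to 38 bases before its start (10.8%). CACGTG and TTCNNNGAA were in none of the 7 and in 7.15% and 8.30% of all promoters. A match to so short a motif describes the sequence and not a bound site.

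The 3 chains of C1q had the highest levels of the set. Means were divided by the length of the exons of a gene, with the exons of all its annotated transcripts joined. The mean of *C1qb* was then 2785 normalized counts per kb for day 0, 5809 for BDL day 3 and 3346 for BDL day 14. Values below keep this order of the groups. *C1qa* had 2346, 4356 and 1827 normalized counts per kb, and *C1qc* had 1466, 2305 and 839. *Cfp* came next in every group with 1031, 1601 and 343 normalized counts per kb. At day 0 the order went on with *C3* (114), *C6* (71.7), *C2* (26.9), *C3ar1* (15.9) and *C5ar1* (15.6 normalized counts per kb), but *C1qb* and *C1qa*, *C3* and *C6*, and *C3ar1* and *C5ar1* were neighbours whose levels per kb differed by less than their combined SD. At BDL day 3 *C6* (115) stood above *C3* (33.8), *C3ar1* (29.0), *C2* (25.1) and *C5ar1* (16.7), and among these last 4 no neighbours differed beyond the SD. At BDL day 14 *C3ar1* stood above *C3*, with 59.5 against 27.0 normalized counts per kb, and *C6* (2.84) and *C2* (1.07) stood last. *C3* and *C5ar1* (23.9) did not differ beyond their SD in that group, while all other neighbours did.

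The spread of the libraries behind these means had to be derived from the pooled columns. For nearly all genes the geometric mean over all 10 libraries lies below the value that the group means alone would give, and this gap measures the spread of libraries within groups. It was turned into 1 average SD per gene on the log2 scale. This SD is the spread of single libraries and not the error of a mean or of a ratio of means. The SD was 0.16 to 0.72 for the 9 genes with a median of 0.33, and the median over all 12889 genes was 0.58. For a pair of genes the SDs were combined as if independent. Both genes come from the same libraries, and how they vary together is unknown, so a combined SD may differ from the spread of their ratio. The same columns, with the count of the highest library, limit the value that any library of a group can have. Where the limits of a pair of groups did not overlap, every library of one lay above every library of the other. Ranges given below are these limits. Where ranges overlap, a separation is not shown, and the libraries themselves may or may not overlap.

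**Figure D1:**
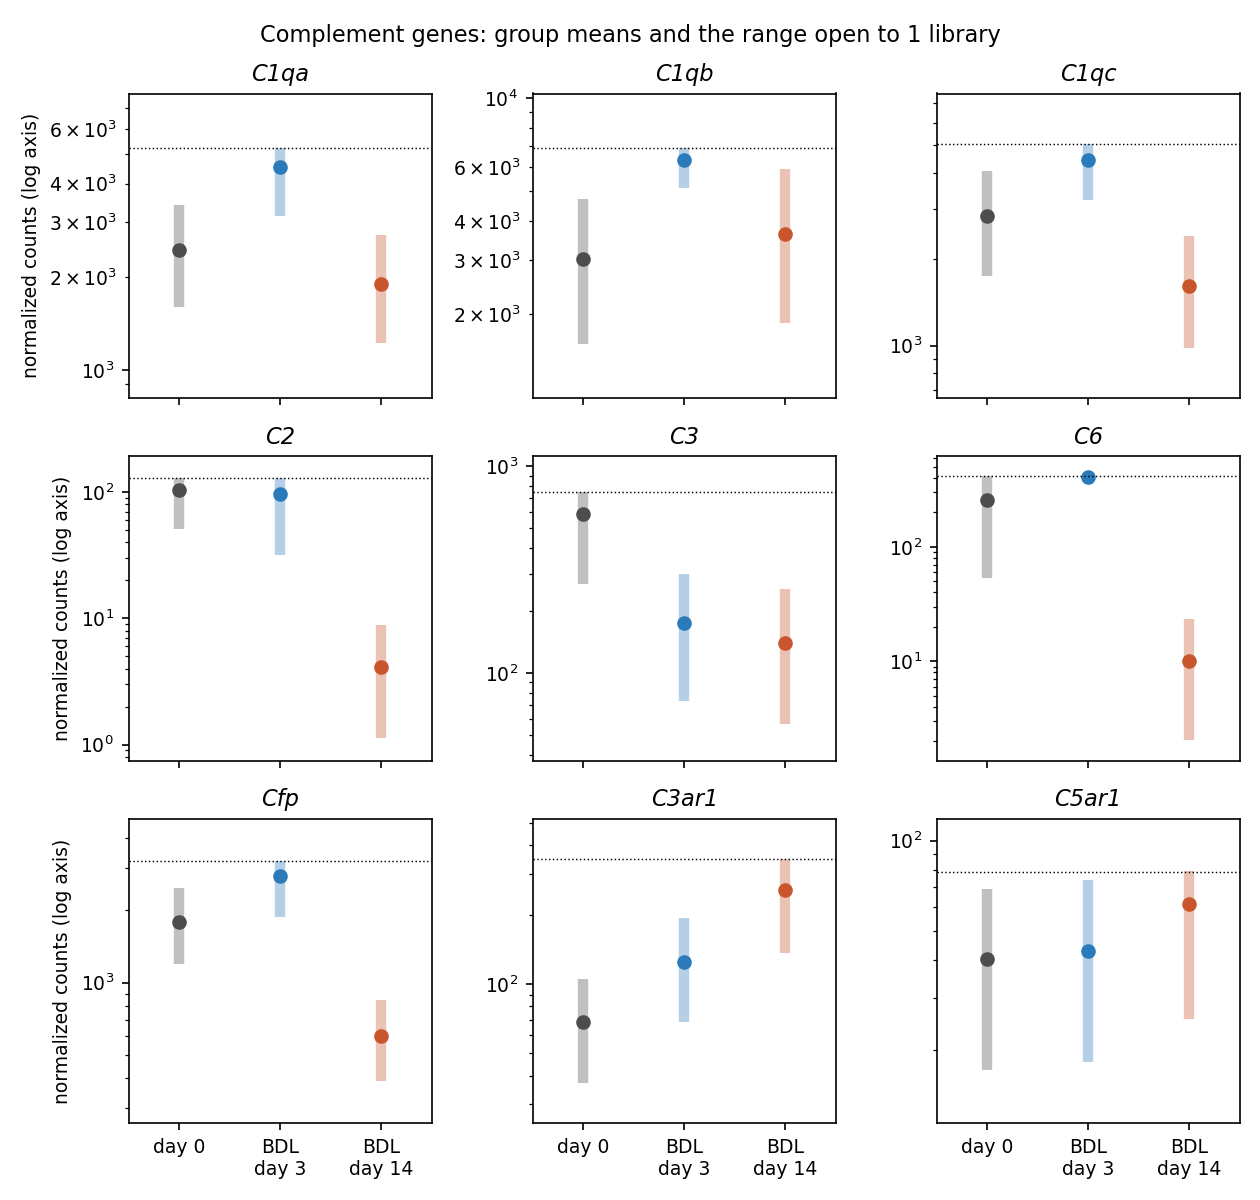
Mean normalized counts (log axis, a separate scale for each gene) of 9 complement genes in the 3 groups. Points are the authors' group means, bars are the limits for the value of any 1 library of that group, and the dotted line is the highest of the 10 libraries. The limits of *C2* and *C6* at BDL day 14 lie far below those of the other groups, and those of *C5ar1* overlap in every group.

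*C1qa* had means of 2440, 4530 and 1900 normalized counts. Its highest library, with 5210, can only be one of BDL day 3. No library of BDL day 3 can lie below 3145 and none of BDL day 14 above 2725, so the BDL day 14 libraries were all lower. The range at day 0 ran from 1595 to 3409 and overlapped both. The log2 ratio was 0.89 for BDL day 3 to day 0, -0.36 for BDL day 14 to day 0 and -1.25 for BDL day 14 to BDL day 3, with an SD of 0.20.

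*C1qb* had means of 3030, 6320 and 3640 normalized counts. Every BDL day 3 library (5115 to 6915) lay above every day 0 library (1610.0 to 4734). It was the only one of the 9 genes for which the limits separated these groups. The BDL day 14 range was 1883 to 5906 and overlapped both. Its log2 ratios against day 0 were 1.06 and 0.26, with an SD of 0.33.

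*C1qc* had means of 2830, 4450 and 1620 normalized counts. All its BDL day 14 libraries (at most 2404) lay below the BDL day 3 libraries (at least 3225). Its log2 ratios to day 0 were 0.65 and -0.80, with an SD of 0.23. All 3 chains were thus higher than at day 0 at BDL day 3, by 1.86-fold for *C1qa*, 2.09-fold for *C1qb* and 1.57-fold for *C1qc*. At BDL day 14 *C1qc* was 1.75-fold lower than at day 0, while the 1.20-fold higher mean of *C1qb* was within its SD.

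C1q is built from equal numbers of its A, B and C chains. The share of *C1qb* in the summed level per kb of the 3 chains was 42.2%, 46.6% and 55.7% in the order of the groups. The share of *C1qc* was 22.2%, 18.5% and 14.0%, and that of *C1qa* was 35.6%, 34.9% and 30.4%. The size of a share within a group depends on the exon lengths used, which were 1040 bases for *C1qa*, 1088 for *C1qb* and 1931 for *C1qc*. Undivided, the day 0 mean of *C1qc* (2830) was above that of *C1qa* (2440). An imbalance of the chains is therefore not shown. Between day 0 and BDL day 14 the log2 ratio of *C1qb* to *C1qc* differed by 1.07, which does not depend on the lengths. The summed counts of the 3 chains were 8300, 15300 and 7160, which gave log2 ratios to day 0 of 0.88 and -0.21.

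*C2*, the component cut by C1s next to C4, had means of 104, 97.0 and 4.15 normalized counts. No BDL day 14 library can hold more than 8.83, whereas the day 0 libraries lay between 51.5 and 129.5 and those of BDL day 3 between 31.85 and 129.5. Every BDL day 14 library was therefore lower than every library of the other groups. The mean was 25.1-fold lower than at day 0 and 23.4-fold lower than at BDL day 3, with log2 ratios of -4.65 and -4.55 and an SD of 0.61. Between BDL day 3 and day 0 the log2 ratio was -0.10, which is less than the SD.

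*C2* shares exons with other genes, and the sources used here do not say how shared reads or strands were counted. *Gm20547*, a protein-coding readthrough on the same strand, shares 1656 exon bases with *C2*, which is 42.8% of its exon length. Its means were 0.709, 2.83 and 0.508 normalized counts in the 3 groups. *Zbtb12*, on the opposite strand, shares 161 bases and had means of 4.05, 3.06 and 2.08. At day 0 and BDL day 3 both were far below *C2*, and at BDL day 14 *Zbtb12* was at a level near its own.

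*C3*, the component on which all pathways meet, was the only gene of the set that was lower at BDL day 3 by more than 1.5-fold. Its means were 587, 174 and 139 normalized counts. All BDL day 14 libraries (56.5 to 254) lay below all day 0 libraries (268.5 to 745.5). The limits for BDL day 3 (72.9 to 302) overlapped those of day 0 at the upper end, so a separation was not shown. Its log2 ratios to day 0 were -1.75 and -2.08, with an SD of 0.43, and the one between the BDL groups was -0.32.

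*Cfp* had means of 1790, 2780 and 596 normalized counts. Its BDL day 14 libraries (388 to 843) were all below those of day 0 (1191.5 to 2476) and of BDL day 3 (1875 to 3225). Against day 0 the log2 ratios were 0.64 and -1.59, and between the BDL groups -2.22. Its SD of 0.16 was the lowest of the 9 genes, although rounding of the table allows 0 to 0.24.

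*C6*, the terminal component that binds C5b first, had means of 255, 409 and 10.1 normalized counts. The BDL day 3 libraries all lay between 396.5 and 414.5. Those of BDL day 14 lay between 2.04 and 23.5, below every day 0 library (53.5 to 414.5). The mean was 25.2-fold lower than at day 0 and 40.5-fold lower than at BDL day 3. Against day 0 it had log2 ratios of 0.68, less than the SD of 0.72, and -4.66. This SD is an average over groups of unlike spread, since the BDL day 3 libraries lay close together. The highest library, with 414 normalized counts, can be one of day 0 or BDL day 3. If it was one of day 0, the mean of the other day 0 libraries is 175.5, and the log2 ratios become 1.22 and -4.12.

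*C3ar1*, the receptor for C3a, had a higher mean at each step. Its means were 68.3, 125 and 256 normalized counts. All BDL day 14 libraries (136 to 348.5) lay above all day 0 libraries (37.3 to 105), and those of BDL day 3 (68.5 to 193) overlapped both. Against day 0 the log2 ratios were 0.87 and 1.91, with an SD of 0.29. *C5ar1*, the receptor for C5a, had means of 40.2, 42.9 and 61.4 normalized counts, also higher at each step but by 0.09 on the log2 scale at BDL day 3, where its SD was 0.44. Its ranges overlapped in every group, from 17.2 to 69.1 at day 0 and from 25.4 to 78.95 at BDL day 14. The log2 ratio of 0.61 at BDL day 14 passed 1.5-fold by little (1.53-fold), and without the highest library it was 0.47.

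Counted against day 0, 6 of the 9 genes were more than 1.5-fold higher at BDL day 3 and 1 was lower, where 19.2% of all 12889 genes were higher and 29.2% lower. At BDL day 14, 2 were higher and 5 lower (21.2% and 28.8% of all genes). The 6 at BDL day 3 became 3 with quantile normalization, and *C1qc* (0.55) and *Cfp* (0.52) were under 1.5-fold without their highest library. Between BDL day 14 and BDL day 3, 1 was higher and 6 were lower (21.2% and 19.7%). The median log2 ratio of the 9 genes was 0.65 at BDL day 3, -0.80 at BDL day 14 and -1.25 between the BDL groups, and the medians over all genes lay between -0.04 and 0. Groups without overlap were shown for fewer genes. Every library was higher at BDL day 3 than at day 0 for 1 gene and lower for 0 (1.79% and 2.93% of all genes). At BDL day 14 this held for 1 gene higher and 4 lower than at day 0 (1.32% and 3.2%), and for 0 higher and 5 lower than at BDL day 3 (0.683% and 1.69%). The set was selected on these ratios, so its counts are not read against these shares.

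**Figure D2:**
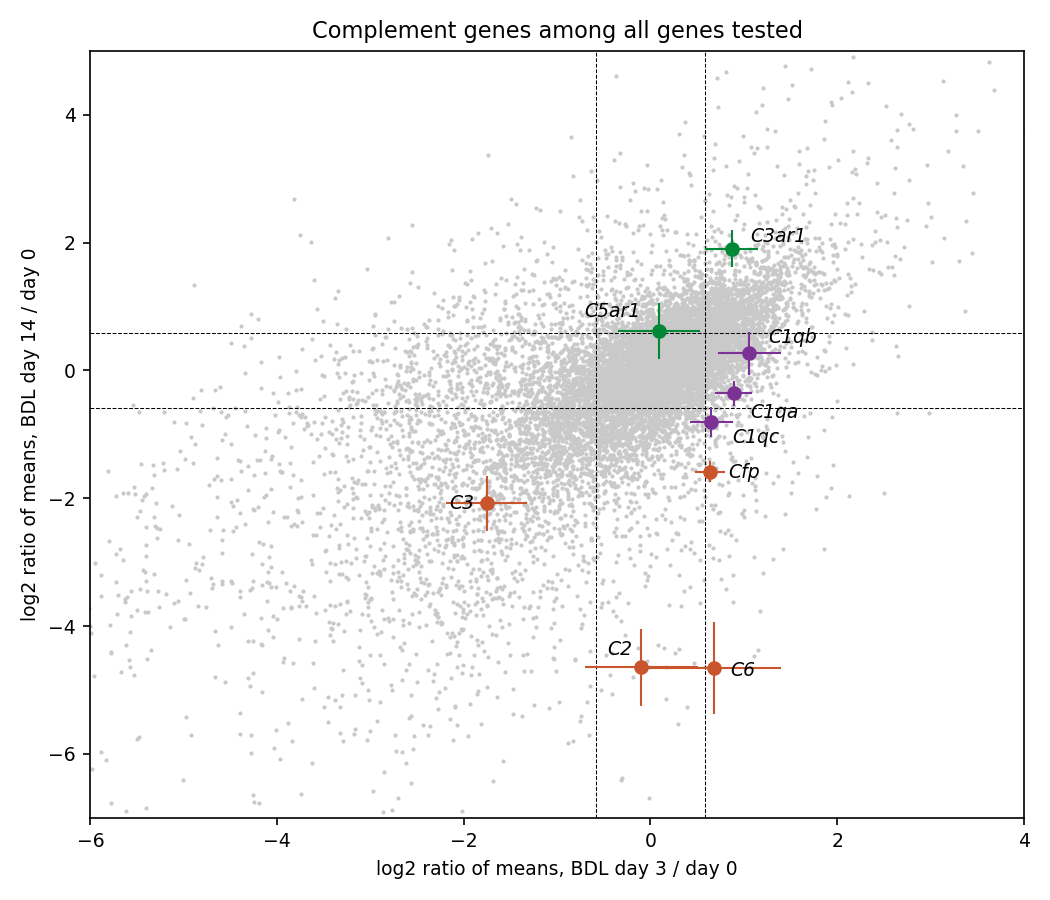
Log2 ratio of group means at BDL day 14 against that at BDL day 3, both to day 0, for the 12889 genes tested (grey; 89 lie outside the axes). Purple marks the C1q chains, green the receptors and orange the other components, bars are the average SD within groups and dashed lines 1.5-fold. *C2* and *C6* lie at -4.65 and -4.66 on the vertical axis, and *C3ar1* at 1.91.

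Set against C1q, the other genes had separate patterns between day 0 and BDL day 14. Relative to the summed counts of the 3 chains, *C2* and *C6* were lower by nearly the same amount, with a log2 difference of 4.43 (SD 0.66, combined from both) for C1q over *C2* and 4.44 (SD 0.76) for C1q over *C6*. C1q over *Cfp* differed by 1.37 and C1q over *C3* by 1.87 on the same scale. C1q over *C3ar1* had a log2 difference of -2.12 (SD 0.39). C1q over *C5ar1* had -0.82 (SD 0.51), which became -0.35, less than the SD, with *C1qb* alone in place of the sum. At BDL day 3 the picture was different, since C1q over *C6* and C1q over *C3ar1* had log2 differences of 0.20 and 0.01 to day 0, both less than their SD, while C1q over *C2* had 0.98 and C1q over *C3* 2.64. Most of the BDL day 14 difference for *C2*, *C6* and *C3ar1* therefore arose between BDL day 3 and BDL day 14, with log2 differences of 3.45, 4.24 and -2.13. All comparisons to day 0 share the same day 0 libraries. The combined SDs treat the genes as independent, which cannot be checked without values of single libraries.

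Within the pairs, *C6* over *C2* was nearly the same at BDL day 14 as at day 0 (log2 difference -0.01, where the SD of the pair was 0.94), with a difference of 0.78 at BDL day 3. *C3ar1* over *C5ar1* was higher than at day 0 by 0.78 and 1.30 on the log2 scale. *C3ar1* over *C3*, the receptor over the gene whose product gives its ligand, was higher by 2.63 and 3.98.

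The genes nearest to each pattern were sought by the distance between log2 ratios to day 0 at BDL day 3 and BDL day 14, over 3 group means, among genes with a mean of at least 10 in every group (5927 to 5930 genes). The nearest to *C6* was *Clec4f*, a lectin of Kupffer cells, at a distance of 0.10, followed by *Timd4* (0.47), *Apoc1* (1.25), *Folr2* (1.40) and *Nr1h3* (1.69). *Clec4f* had means of 4610, 6890 and 185 normalized counts, and its log2 ratio at BDL day 14 was -4.64, against -4.66 for *C6*. The distance of 0.10 is less than the SD of *C6* (0.72), so the order of the nearest genes is uncertain. If the highest *C6* library was one of day 0, its ratios become 1.22 and -4.12. *Timd4* (1.11 and -4.47) would then be nearer than *Clec4f* (0.58 and -4.64). Genes with a mean below 10 at BDL day 14 could not be found in this way. For *C2*, which was itself below 10 at BDL day 14, the nearest were *Clec4f* (0.68), *C6* (0.78), *Timd4* (1.22), *Apoc1* (1.28) and *Siglece* (1.60). *C3ar1* was nearest to *Bcl2a1b* (0.065), *Clec4d* (0.067), *Tgfbr1* (0.091), *Cd33* (0.095) and *Gng10* (0.12). The sum of C1q was nearest to *Adgre5*, *Nrip1*, *Tbc1d10a*, *Dcaf15* and *Tmem14c*, and *C5ar1* to *Cnih1*, *Gm6136*, *Klhdc10*, *Ift52* and *Nucb1*, all within 0.081. Near the centre of the ratios many genes lie close together, so a small distance is common there.

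The wider complement list has 45 genes outside the set, of which 43 were in the table and 39 were tested. At BDL day 3, 8 were more than 1.5-fold higher than at day 0 and 25 lower, beside 19.2% and 29.2% of all genes tested, with a median log2 ratio of -1.36. At BDL day 14, 6 were higher and 26 lower, beside 21.2% and 28.8% of all genes, with a median of -1.78.

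Of the classical and lectin pathways, 11 genes were tested, 9 of which were lower at BDL day 3, and 10 were lower at BDL day 14. The proteases that sit on C1q followed a different course from C1q itself. *C1s1* had means of 39.5, 2.32 and 5.21 normalized counts, with every library of both BDL groups below those of day 0. *C1ra* had 62.4, 34.1 and 25.2. Each has a near-identical copy in mice (*C1s2*, *C1rb*), so how reads were split between the copies is uncertain. *C4b*, whose product is cut together with C2, had 475, 405 and 83.8 normalized counts, and its near-identical copy *C4a* was not analysed here. *Fcna*, a ficolin of the lectin pathway, was the one gene of this group that was higher at BDL day 3, with means of 1630, 2930 and 217 normalized counts. Its BDL day 14 libraries were all below those of day 0 and BDL day 3. *Colec10* had log2 ratios of -4.25 and -6.76 and *Mbl1* of -3.11 and -4.81. Their BDL day 14 means (0.253 and 0.27) were just above the floor of 0.244. Without the highest day 0 library the ratios were -3.52 and -6.03 for *Colec10* and -2.11 and -3.81 for *Mbl1*. *Mbl2* reached the floor of the table at BDL day 14, and *Masp1* was lower at BDL day 3 (-2.28) but within 1.5-fold at BDL day 14 (-0.38).

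In the alternative pathway, *Cfb*, the neighbour of *C2*, had means of 196, 154 and 49.2 normalized counts. Its log2 ratio at BDL day 14 was -1.99, against -4.65 for *C2*, and the log2 ratio of *C2* over *Cfb* differed by -2.65 from day 0. *Cfd*, the protease that cuts factor B, was at the floor at day 0 and had 9.29 and 3.34 normalized counts after BDL, at least 18.1-fold and 6.52-fold higher. The value at BDL day 3 rests on 1 library with 25.7, without which the mean was 1.08 and the bound 2.12-fold.

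All 6 other genes of the terminal pathway were lower at both times, unlike *C6* at BDL day 3. They were also lowly expressed, with means at day 0 between 4.54 for *C9* and 13.7 for *C8a*. *Hc*, which encodes C5, had means of 8.51, 2.91 and 2.79 normalized counts. *C7* reached the floor at BDL day 3, a level at least 28.3-fold lower than its day 0 mean. *C8a* had 4.42 at BDL day 3 and 0.58 at BDL day 14. For *C8b* and *C9* the lower levels rest on 1 day 0 library each, without which the log2 ratios were -0.04 and -0.36 for *C8b* and 0.28 and 0 for *C9*.

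Of 9 regulators tested, 8 were lower at BDL day 3, and for BDL day 14 this number was 7. *Serping1*, the inhibitor of C1r and C1s, had means of 79.9, 8.35 and 8.51 normalized counts, and *Clu*, an inhibitor of the membrane pore, had 572, 161 and 243. For both, every BDL library lay below every day 0 library. *Vtn* had 111, 26.1 and 8.03, and without its highest library the day 0 mean was 54. *Cd55*, a regulator on the cell surface, had log2 ratios of -0.81 and -0.94, and *Cd59a* was lower at BDL day 3 (-2.48) and within 1.5-fold at BDL day 14 (-0.37). *Cr1l* was within 1.5-fold at both times (0.34 and 0.46).

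Of the receptors, 6 of 10 were higher and 2 lower at BDL day 3, and 5 were higher and 2 lower at BDL day 14. The subunits of complement receptors 3 and 4, which bind fragments of C3, were higher at both times. *Itgam* had means of 44.4, 99.5 and 220 normalized counts and *Itgax* 6.71, 27.0 and 65.5. Their shared partner *Itgb2* had 168, 445 and 369, with every BDL day 3 library above those of day 0. *Cd93* had 30.7, 19.8 and 266, and its BDL day 14 libraries were all above those of both other groups. *Vsig4*, a receptor for C3 fragments on Kupffer cells, had 1020, 2040 and 207, with every BDL day 14 library below those of BDL day 3. *C5ar2*, the other receptor for C5a, was within 1.5-fold (-0.50 and -0.44), as was *Calr* (0.47 and -0.02), whereas *Lrp1* had 1.17 and 0.38 and *C1qbp* 0.94 and 0.65, the latter under 1.5-fold (0.48) if its highest library was one of BDL day 14. *Cr2* was at the floor in both BDL groups.

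**Figure D3:**
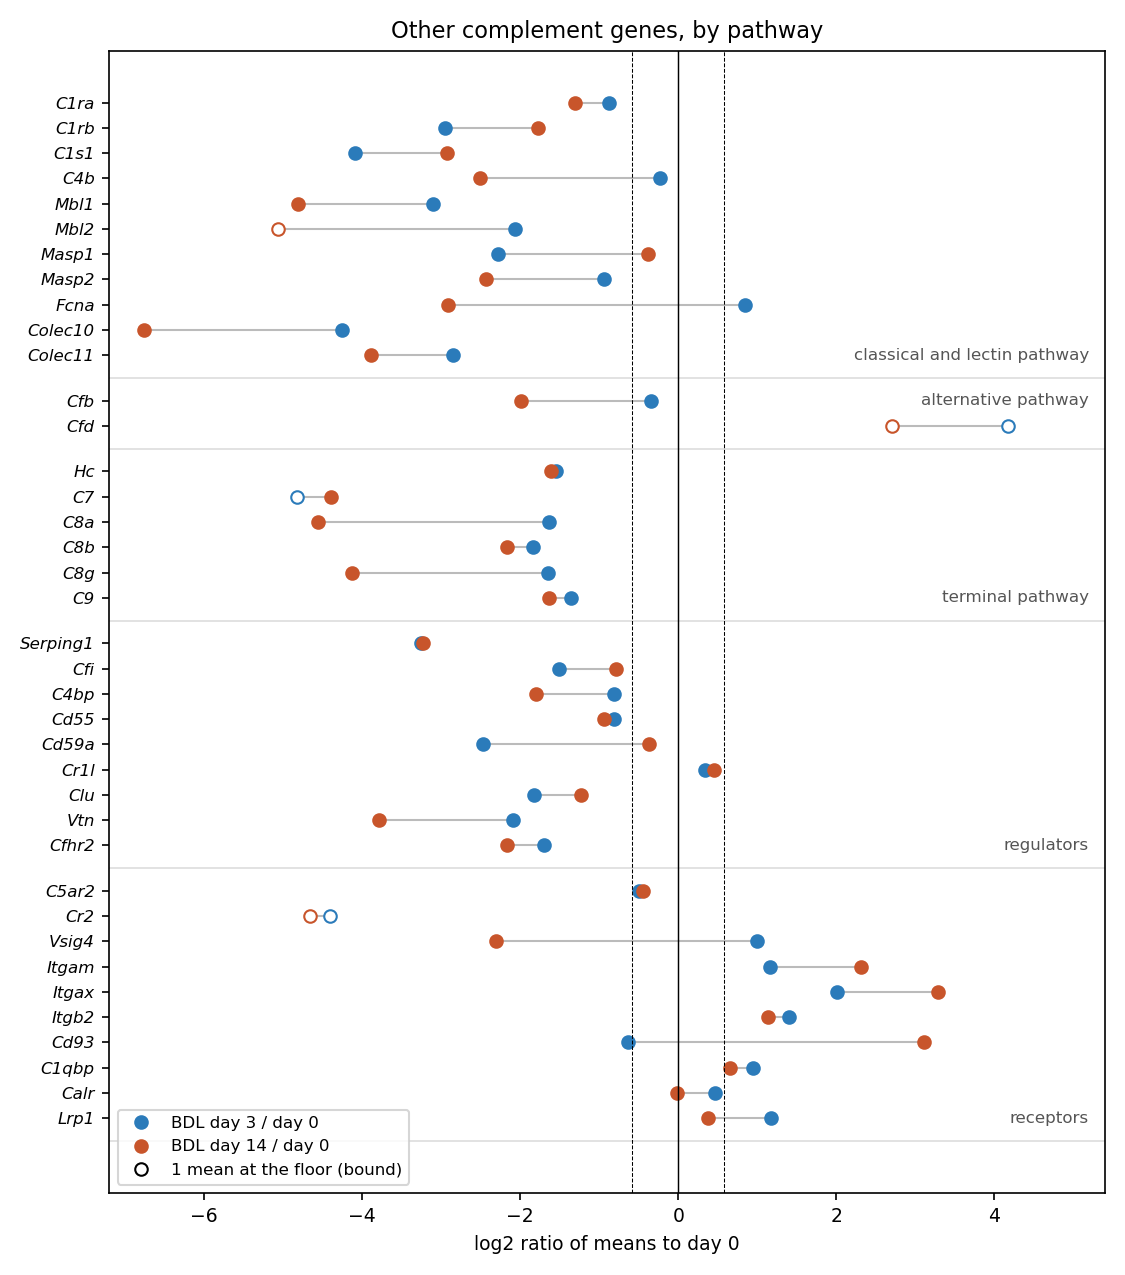
Log2 ratio to day 0 of 38 of the 39 other complement genes tested, by pathway, at BDL day 3 (blue) and BDL day 14 (orange), with dashed lines at 1.5-fold and open points where a mean was at the floor and the ratio is a bound. Genes of the terminal pathway and most regulators lie left of 0 at both times, and *Itgam*, *Itgax* and *Itgb2* lie right of it.

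The labels describe the cells as *Prom1*-expressing progenitors and their progeny. Of 11 cholangiocyte and progenitor markers, 9 were tested, and the summed mean was 191, 149 and 162 normalized counts in the 3 groups, with *Krt19* at 21.5, 12.7 and 14.3, *Prom1* at 6.66, 0.956 and 1.76 and *Sctr* at the floor at BDL day 3. At each time 6 of the 9 were more than 1.5-fold lower than at day 0, none was higher, and the medians were -0.96 and -0.63. All counts of markers from here on stand beside 19.2% of all genes tested that were higher and 29.2% that were lower at BDL day 3. At BDL day 14 these shares were 21.2% and 28.8%. The lists are short, and some of their counts lie near these shares. The 8 general macrophage markers summed to 6387, 11417 and 17220 normalized counts. *Lyz2*, a lysozyme gene, alone had 2280, 4560 and 11200, and the other markers summed to 4107, 6857 and 6020. Since RNA was measured in bulk, fewer cells of a type and less RNA per cell cannot be told apart for any gene described here.

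Beside C1q and *Cfp*, 6 of 8 macrophage markers were more than 1.5-fold higher at BDL day 3 and 2 were so at BDL day 14, with none lower. *Csf1r*, the receptor on which macrophages depend, had means of 1360, 2140 and 1230 normalized counts. The geometric mean of the 8 markers had log2 ratios to day 0 of 0.72 and 0.54. Divided by it, the log2 ratio at BDL day 3 was 0.17 for *C1qa*, 0.34 for *C1qb*, -0.07 for *C1qc*, -0.04 for *C6*, -0.09 for *Cfp* and 0.15 for *C3ar1*, where the undivided ratios of these 6 genes were 0.64 to 1.06. The other genes had divided ratios of -0.63 (*C5ar1*), -0.82 (*C2*) and -2.48 (*C3*) at that time. For BDL day 14 the divided ratios were -5.19 for *C2*, -5.20 for *C6*, -2.13 for *Cfp*, -1.35 for *C1qc*, -2.62 for *C3*, -0.90 for *C1qa* and -0.28 for *C1qb*. *C3ar1* kept 1.36 and *C5ar1* had 0.07. The 8 markers had unlike log2 ratios at BDL day 14, from -0.53 for *Cd14* to 2.30 for *Lyz2*. The divided ratios therefore depend on which markers are used, and they were not computed without *Lyz2*.

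**Figure D4:**
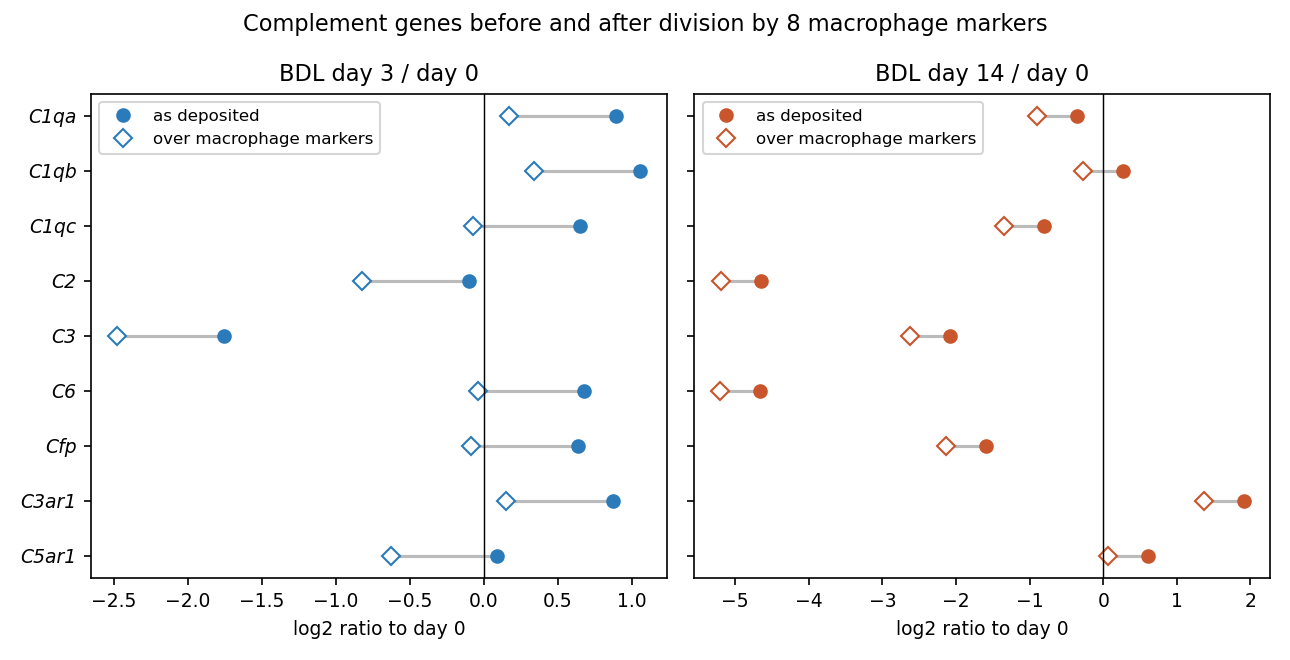
Log2 ratio to day 0 of the 9 genes as deposited (filled circles) and after division by the geometric mean of 8 macrophage markers in the same group (open diamonds), at BDL day 3 (left) and BDL day 14 (right). At BDL day 3 the divided ratios of *C1qc*, *C6* and *Cfp* lie just below 0, and at BDL day 14 those of *C2* and *C6* lie near -5.2.

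Beside *C2* and *C6*, all 8 Kupffer cell markers were lower at BDL day 14 (median log2 ratio -2.11), and 7 were higher at BDL day 3 (median 1.04). Their summed mean was 10938, 24013 and 2006 normalized counts. The log2 ratio of *C6* over *Clec4f* differed from day 0 by 0.10 at BDL day 3 and by -0.02 at BDL day 14. That of *C2* over *Clec4f* differed by -0.68 and -0.01. *Clec4f* was found as the gene nearest to *C6* and to *C2* by these same ratios, so small differences follow from that choice. The 8 markers had unlike log2 ratios at BDL day 14, from -4.64 for *Clec4f* to -0.63 for *Slc40a1*, where *C2* had -4.65 and *C6* -4.66. None of the 8 markers was at the floor in any group. Beside *C3ar1*, 7 of 8 markers of monocyte-derived cells were higher at BDL day 14 (median 3.47) and 1 lower, with a summed mean of 230, 236 and 2220 normalized counts, and all 6 markers of lipid-associated macrophages were higher (median 2.93; sums 942, 2296 and 4579). At BDL day 3, 3 monocyte-derived markers were higher and 2 lower, and 4 lipid-associated markers were higher and 1 lower. The part of these cell types in the levels of the complement genes was not tested.

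Beside *C3* and the other genes that were lower at both times, 6 of 8 hepatocyte markers were lower at BDL day 3 and all 8 were lower at BDL day 14, with medians of -1.86 and -3.03 and sums of 3374, 939 and 381 normalized counts. *Alb*, the main plasma protein of hepatocytes, had means of 2440, 642 and 271. All 8 mesenchymal markers were lower at both times (medians -5.64 and -3.42; sums 1187, 23.0 and 111). Sinusoidal endothelial markers were lower at BDL day 3 in 6 of 6, and at BDL day 14 in 1 with 1 higher (sums 784, 281 and 859). T and NK cells summed to 77.2, 23.1 and 6.26 normalized counts, with 4 and 5 of 5 genes lower at the 2 times. B cells summed to 180, 49.1 and 21.3, with all 4 genes lower at both. Neutrophil markers, of cells that carry *C5ar1*, summed to 527, 259 and 183, with 3 and 4 of 6 tested genes lower and 1 higher at BDL day 14. Dendritic cell markers summed to 18.2, 5.03 and 20.6, with 4 of 4 tested genes lower at BDL day 3 and 1 lower and 3 higher at BDL day 14. Whether these cells contributed to the complement genes was not tested.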

How the data were processed

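mRNA libraries of sorted GFP(+) cells (TruSeq, NextSeq) were trimmed, aligned to mm10 with STAR (2.6.1d in the submitters' processing notes), quantified on GENCODE M18 and normalized by the upper quartile method in Partek Flow by the authors. Their deposited table gives these normalized counts as signal values, 1 least squares mean per group, with the arithmetic and geometric mean, the sum and the highest value over 10 libraries, to 3 digits. It has 0 columns of single libraries. It also gives their p-values, FDR, ratios, log2 ratios, fold changes and 95% limits for 3 comparisons, none of which were used. The group means, weighted by 3, 3 and 4 libraries, gave back the mean over all libraries within 0.678%. The group means summed to 922733, 843750 and 735604 normalized counts, and depth per library is unknown.

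Ratios of the deposited means were computed with pandas 2.3.3 and numpy 2.4.6 in Python 3.11.15, with no pseudocount, for genes with a summed normalized count of 10 or more. A ratio above 1.5-fold was counted, since no new test was possible from group means and the authors' tests were not used. Means of up to 4 times the lowest of a group (0.512, 0.292 and 0.244) were read as the floor, and ratios to them given as bounds. The SD within groups came from the gap between the group means and the geometric mean, assuming log-normal spread averaged over groups. The limits for 1 library came from the mean, the geometric mean and the highest value, with rounding. Both were devised after the columns of the table were seen and were tested on simulated data. The simulated libraries were log-normal with the same SD in every group, as the SD assumes, so unequal spread between groups was not tested. Exon lengths and overlaps are those of GENCODE M21 on GRCm38, where 16934 of 16950 shared symbols had the same coordinates once 1 base was taken off the deposited stop. Promoters of 7 genes, all but *C1qa* and *C2*, came from RefSeq.

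The genes and lists, the motifs and the rule for named genes (all 9 genes, the counts of each list, and the 5 genes nearest to C1q, *C2*, *C6*, *C3ar1* and *C5ar1*) were chosen with earlier results of these data known. Genes of the wider list named with values were picked after their values were seen. For 1 tested gene of the wider list no values are reported here. Marker lists covered macrophages, Kupffer cells, monocyte-derived cells, lipid-associated macrophages, neutrophils, dendritic cells, T and NK cells, B cells, hepatocytes, cholangiocytes, mesenchymal and sinusoidal endothelial cells. The alternatives were a pseudocount of 1 or 0.1, median-ratio scaling, quantile normalization, a 2-fold threshold, no filter, a mean of at least 10, leaving out the highest library, division by macrophage markers and other summaries of C1q. Leaving out the highest library of genes in the wider list, and *Lyz2* in the macrophage sum, was chosen after the data were seen.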

Additional observations from a re-analysis of the deposited data

How the results depend on the processing

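No paired analysis was possible because the table holds group means and the labels pair no libraries, and leaving out a named replicate was not possible for the same reason. Without the depth of the libraries, counting error could not be estimated. Of the values of single genes under the alternatives, 132 stayed within 1 SD, 22 moved by more, and 3 that were past 1.5-fold changed sign. In all 7 changed sign, 5 of them relative to the macrophage markers. Pseudocounts of 1 and 0.1, median-ratio scaling (which moved the log2 ratios of all genes by 0.02, 0.03 and 0.01) and leaving out the highest library moved none by more than 1 SD. Without the highest library, the log2 ratio of *C1qc* (0.55) and *Cfp* (0.52) at BDL day 3 and of *C5ar1* (0.47) at BDL day 14 fell under 1.5-fold, and *C2* at BDL day 3 changed sign within its SD (0.08).

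The number of genes more than 1.5-fold higher at BDL day 3, which was 6, became 3 with quantile normalization and 1 at a 2-fold threshold. The 2 genes higher at BDL day 14 became 1 at a 2-fold threshold. With quantile normalization the log2 ratio of *C1qb* at BDL day 14 was 0.84. Relative to the macrophage markers, the log2 ratios at BDL day 3 of *C1qc* (-0.0695), *C6* (-0.0409) and *Cfp* (-0.0874) changed sign, since the markers themselves were higher by 0.72, as did *C5ar1* at that time (0.09 to -0.63) and *C1qb* at BDL day 14 (0.26 to -0.28). *C5ar1* at BDL day 3 also did with quantile normalization (-0.04). The difference of C1q against *C3ar1* at BDL day 14 was -1.64 with *C1qb* alone and -2.71 with *C1qc* alone, and against *C5ar1* it was -0.35 and -1.42, the former within its SD. The shares of all genes past 1.5-fold stayed within 1.5 times under no filter and with a mean of at least 10.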
